A study of Mus musculus with 19 samples.

Results

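The cytosolic ribosomal protein genes encode the protein parts of the ribosomes that translate nuclear messages in the cytoplasm. Members were taken by name from the protein-coding rows of the count table (Rpl and Rps followed by a number, Rplp0 to Rplp2, and Rpsa, with the Rps6k kinases left out) and were used where at least 10 counts were found in at least 4 libraries. Of 57010 rows, 83 matched by name and 80 were used, 32 of the small subunit and 48 of the large subunit. The 3 names not used were the paralogues Rpl3l, Rpl10l and Rpl39l, which had mean counts of 4.6, 0 and 3.1 per library. All 80 members were among the 17757 genes tested. The rule used names and counts and no comparison between groups, but it was chosen with earlier results of these data known.

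Each mature ribosome holds 1 copy of nearly every one of these proteins, so their genes are usually expressed at matched levels. Their messages are among the most abundant and shortest in a cell, and most begin with a run of pyrimidines at the very 5′ end, the terminal oligopyrimidine motif, through which mTOR signalling and the RNA-binding protein LARP1 regulate their translation and stability. In brain, they are found in neuron cell bodies and also in dendrites, axons and glial processes, where local translation takes place.

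Poly(A) RNA of the medial prefrontal cortex was sequenced from wild-type (WT) mice in 4 groups. Co-treated mice (n = 5) received sedanolide, a phthalide of celery, at 20 mg/kg by gavage for 8 days and bacterial lipopolysaccharide (LPS) at 1 mg/kg by intraperitoneal injection for 5 days, with the gavage beginning 3 days ahead of the injections. LPS mice (n = 5) had the same LPS injections with saline gavage, sedanolide mice (n = 5) had the same sedanolide gavage with saline injections, and control mice (n = 4, numbered 1, 2, 4 and 5) had saline by both routes. Sex and age are not given in the sources used here, and whether each library is of its own animal is not said either. The p-values therefore speak of the scatter between libraries, which may be technical. The design asks how sedanolide acts in mice with and without LPS.

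Libraries held 19.1 to 24.3 M counts, and members took 1.08% to 1.79% of them. The unit of level is CPM, a gene's counts for each M counts in its library, with the total scaled by TMM. Markers of cortical excitatory neurons (7 of 7 measured) averaged 5.86 to 7.89 on the log2(CPM + 1) scale over the 19 libraries, as the tissue label implies. Olfactory bulb markers (4 of 4 measured) were also present, and averaged 0.67 to 1.06 in co-treated, 1.25 to 5.75 in LPS, 0.73 to 5.82 in sedanolide and 1.20 to 7.07 in control libraries. By the bulb gene Cdhr1, 7 libraries stood at 20 CPM or above: LPS replicates 2, 3 and 4, sedanolide replicates 3 and 4, and control replicates 1 and 5. Mitochondrially encoded transcripts took 5.5% of counts in co-treated replicate 5 and 6.52% to 11.8% elsewhere. In bulk tissue, fewer cells of a type and less RNA per cell cannot be told apart.

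The pyrimidine motif lies at the 5′ end of the message, so the 30 bases around the annotated start (15 on each side, RefSeq, GRCm38.p6) are shown for members the results turn on. The first 15 bases precede the annotated start, so a tract there is not part of a message that begins at that start. Capitals mark the longest tract, a C followed by at least 5 more C or T.
Rps9 (chr7:3704026-3704055, plus strand): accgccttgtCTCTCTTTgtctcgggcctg
Rpl18 (chr7:45718056-45718085, plus strand): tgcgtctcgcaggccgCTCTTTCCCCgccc
Rpl35 (chr2:39005117-39005146, minus strand): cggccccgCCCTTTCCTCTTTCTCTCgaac
Rpl7a (chr2:26910792-26910821, plus strand): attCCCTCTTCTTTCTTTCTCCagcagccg
Rps6 (chr4:86857353-86857382, minus strand): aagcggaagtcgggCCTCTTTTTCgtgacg
Rps27 (chr3:90213634-90213663, minus strand): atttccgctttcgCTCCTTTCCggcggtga
Rps27l (chr9:66946071-66946100, plus strand): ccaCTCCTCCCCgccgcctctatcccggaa
Rpl22l1 (chr3:28805493-28805522, plus strand): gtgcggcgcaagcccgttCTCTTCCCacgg
Rplp0 (chr5:115559452-115559481, plus strand): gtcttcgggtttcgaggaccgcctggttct
Rpl27 (chr11:101442230-101442259, plus strand): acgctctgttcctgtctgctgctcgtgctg
Rpl7l1 (chr17:46782642-46782671, minus strand): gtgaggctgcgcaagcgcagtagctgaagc
Rpsa (chr9:120127751-120127780, plus strand): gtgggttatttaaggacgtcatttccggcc
The tract shown for Rps27l ends before the annotated start, and those for Rpl18 and Rpl22l1 begin after it. Rps27l has a further annotated start without a tract. The last 4 genes, Rplp0, Rpl27, Rpl7l1 and Rpsa, hold no such tract in this window. Of the 80 members, 60 had a promoter in the RefSeq table, and 35 of them (58.3%) held a tract within 15 bases of a start, against 25.5% of 27025 genes. These counts take in tracts that lie wholly before or after the start, and so are not counts of the terminal motif. In the 300 bases from 250 before to 50 after the start, CCGGAAG, searched on both strands, was found in 25 of the 60 members (41.7%) and 9.93% of all genes, AAGATGGC in 6 (10%) and 3.19%, and TATAAA in 7 (11.7%) and 15.7%. These letters are matches only, and the motifs can overlap each other.

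Levels per length differed widely between members. The mean over 19 libraries, divided by the annotated transcript length, had a median of 238 CPM per kb. Rplp1, a stalk protein, was highest at 844 CPM per kb, followed by Rpl41 at 753, whose product of 25 residues is the shortest of the members, and Rps15 at 725. Paralogues were low: Rpl22l1 stood at 107 CPM per kb beside 212 for Rpl22, Rpl7l1 at 32.6 beside 216 for Rpl7, and Rps27l at 22.5 beside 299 for Rps27. The lowest rows were Rpl13a (19.8), Rps10 (5.81) and Rpl24 (0.878), and their counts are discussed at the end. The value of Rps20 per kb (37.8) rests on a long annotated transcript of 3706 bases for a protein of 119 residues.

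Across the 4 groups, 35 of the 80 members differed (edgeR quasi-likelihood test, adjusted p below 0.05), where 17.9% of all genes tested did. Called members were 16 of 32 in the small subunit and 19 of 48 in the large subunit. Per library, the level of the set was described by the median over members of the log2 deviation from each gene's mean over 19 libraries. These medians were 0.21, 0.22, 0.27, 0.34 and -0.25 in co-treated replicates 1 to 5, 0.12, -0.065, 0.017, 0.095 and 0.22 in LPS replicates 1 to 5, -0.064, -0.016, -0.36, -0.44 and -0.52 in sedanolide replicates 1 to 5, and -0.14, 0.13, 0.069 and 0.12 in control replicates 1, 2, 4 and 5. Sedanolide replicates 3, 4 and 5 were the lowest libraries of the study, with all 80 members at or below their own mean in replicates 4 and 5, and sedanolide replicates 1 and 2 lay within the range of the controls. Co-treated replicates 1 to 4 were, with LPS replicate 5, the highest, while co-treated replicate 5 fell among the sedanolide libraries. Group means of this median were 0.16 ± 0.23 in co-treated (SD, n = 5), 0.077 ± 0.11 in LPS (n = 5), -0.28 ± 0.23 in sedanolide (n = 5) and 0.044 ± 0.12 in control libraries (n = 4). As a share of all counts, members took 1.73, 1.69, 1.76, 1.79 and 1.35% in co-treated, 1.66, 1.64, 1.57, 1.68 and 1.72% in LPS, 1.35, 1.46, 1.27, 1.15 and 1.08% in sedanolide and 1.51, 1.65, 1.57 and 1.71% in control libraries. The count of 35 across groups was 60 without co-treated replicate 5 (18.5% of all genes in that fit), 17 without sedanolide replicate 4 (13.8%), 17 without sedanolide replicate 5 (14.1%), and 6 in the 12 libraries under 20 CPM of Cdhr1 (7.21%).

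**Figure D1:**
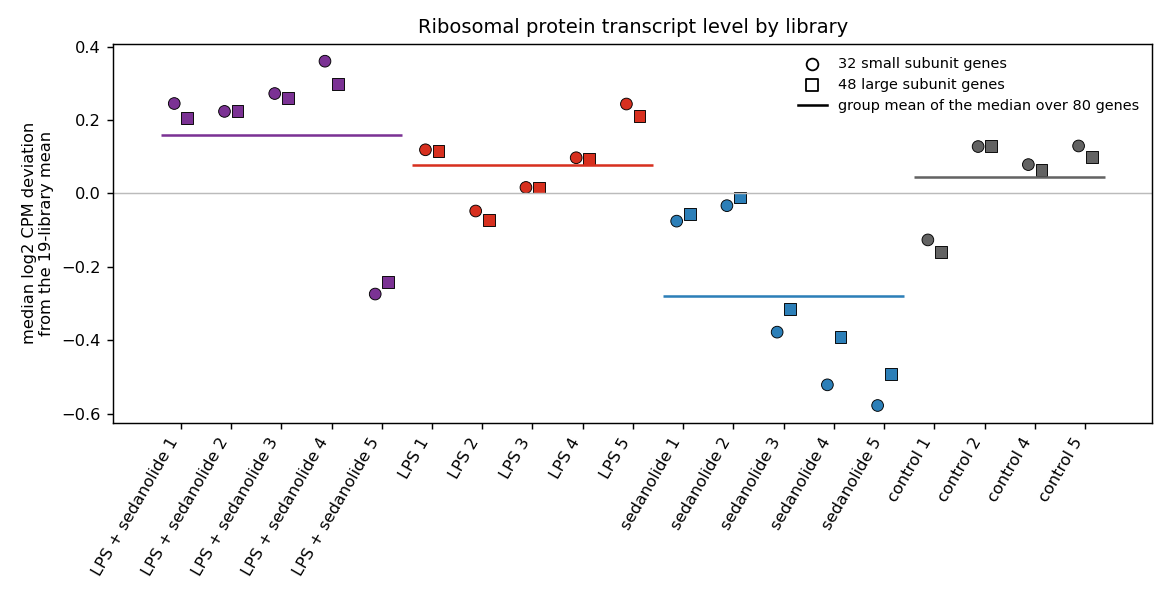
Median log2 CPM deviation of the 32 small subunit genes (circles) and the 48 large subunit genes (squares) from the mean over 19 libraries, for each library in 4 groups; lines are the group means of the median over all 80 members. Circles and squares of a library lie close together, sedanolide replicates 3 to 5 are lowest, and co-treated replicate 5 lies apart from the other 4 co-treated libraries.

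Most calls among members were made between co-treated and sedanolide libraries, a comparison which gives the effect of LPS in mice that all received sedanolide. Here 43 of 80 members were higher in co-treated mice (edgeR quasi-likelihood test), 21 of 32 small and 22 of 48 large subunit genes, where 5.09% of all genes tested were called higher. The log2 change was above 0 for 79 of 80 members, with a median of 0.44 (1.36-fold) beside -0.016 over all genes tested. Changes of the 43 called members ran between 0.25 for Rpl8 and 0.69 for Rpl39.

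Rps9, a small subunit protein that affects decoding accuracy in yeast, had the smallest p-value. It measured 248, 241, 241, 259 and 188 CPM in co-treated replicates 1 to 5 and 168, 167, 174, 149 and 128 CPM in sedanolide replicates 1 to 5. All 5 co-treated libraries were above all 5 sedanolide libraries, the closest being co-treated replicate 5. The change was 1.5-fold (log2 0.59, SE 0.093, adjusted p = 0.000277).

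Rpl18, a large subunit protein, measured 139, 133, 145, 151 and 109 CPM in co-treated and 104, 102, 102, 85.1 and 78.4 CPM in sedanolide libraries. Its groups did not overlap either (log2 0.52, SE 0.090, adjusted p = 0.000651). Rpl10a, which forms the stalk beside the exit site for spent tRNA, had 173, 165, 178, 188 and 141 CPM in co-treated and 129, 134, 125, 119 and 103 CPM in sedanolide libraries. Again the lowest co-treated library was above the highest sedanolide library (log2 0.47, SE 0.082, adjusted p = 0.000707).

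Rpl32 is a structural protein of the large subunit. It measured 186, 179.7, 190.3, 198 and 133 CPM in co-treated and 135, 133, 106, 101 and 95.6 CPM in sedanolide libraries. Co-treated replicate 5 lay below sedanolide replicates 1 and 2, so the groups overlapped in spite of a change of 1.55-fold (log2 0.64, SE 0.12, adjusted p = 0.00142). Rps28, one of the shortest members at 69 residues, had 65.1, 71.9, 63.8, 76.6 and 37.3 CPM in co-treated and 47.1, 49, 35.7, 31.8 and 31.4 CPM in sedanolide libraries (log2 0.69, SE 0.16, adjusted p = 0.0122). Co-treated replicate 5 was again among the sedanolide values.

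Among the other members with the smallest p-values, Rpl35 at the peptide exit (log2 0.45, adjusted p = 0.00122), Rpl7a (0.34, adjusted p = 0.00378), Rpl28 (0.44, adjusted p = 0.00525) and Rpl27 (0.50, adjusted p = 0.00691) were higher in co-treated mice. Rps6, the substrate of the S6 kinases, had 294, 278, 284, 295 and 247 CPM in co-treated and 225, 245, 219, 215 and 219 CPM in sedanolide libraries, and every co-treated value was the higher (log2 0.31, SE 0.069, adjusted p = 0.0067). Of the members not called, the lowest was Rpl24 at log2 -0.32 (adjusted p = 0.682).

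**Figure D2:**
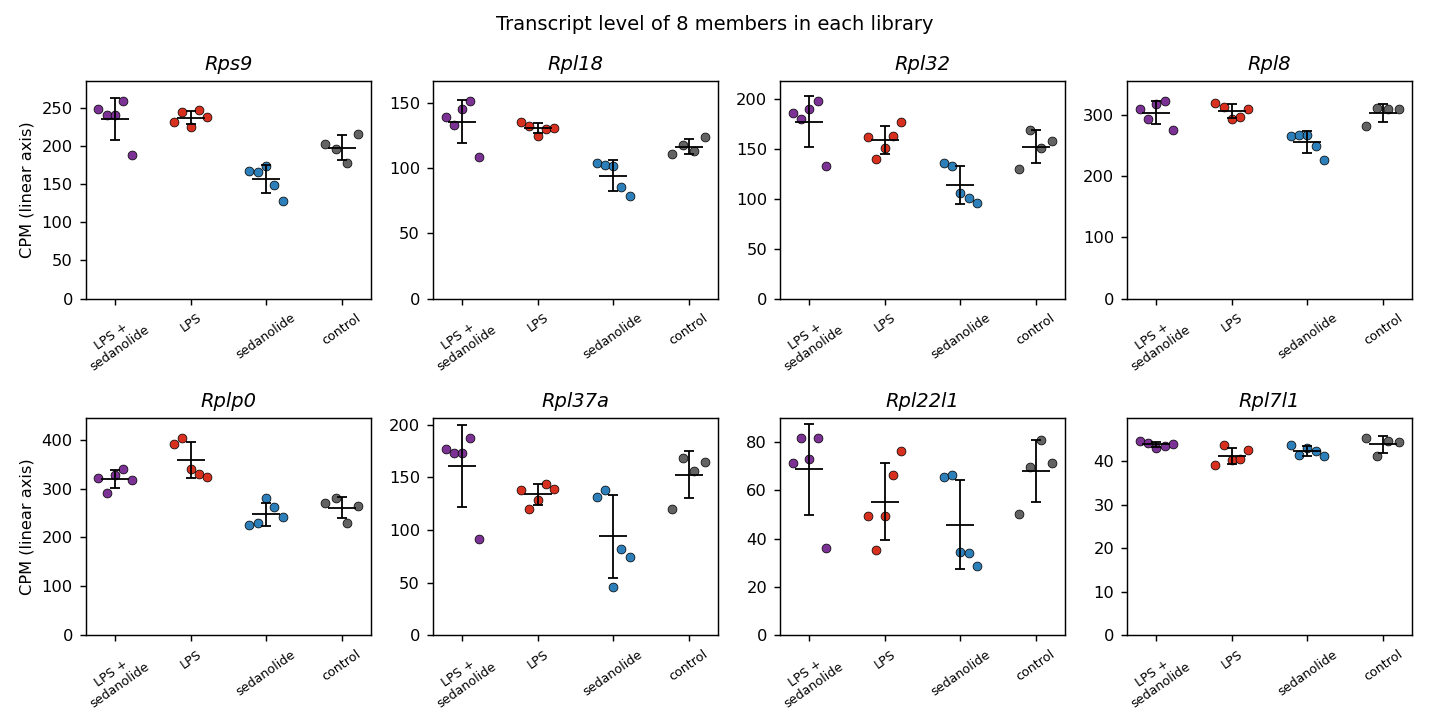
CPM of 8 members in each library of the 4 groups, on linear axes that start at 0; points are libraries, bars are the mean and SD (n = 5, and 4 in controls). Rps9 and Rpl18 separate co-treated from sedanolide libraries, Rplp0 is above every control in all LPS libraries, Rpl37a and Rpl22l1 are widely scattered, and Rpl7l1 stays between 39.2 and 45.4 CPM.

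The number of calls in this comparison moved with single libraries: 68 members were called without co-treated replicate 5, 22 to 28 without any 1 of co-treated replicates 1 to 4, 23 without sedanolide replicate 4 and 24 without sedanolide replicate 5. Genes called in either direction were 4.31% to 7.05% of all genes in these fits, beside 5.58% with every library. The members called were 27 when only these groups were fitted (5.98% of all genes), and 17 in the 12 libraries under 20 CPM of Cdhr1 (4.91%), in which 5 co-treated and 3 sedanolide libraries remain. Of the members followed through every alternative, Rps9, Rpl10a, Rpl18, Rpl27, Rpl28, Rpl32 and Rpl35 were called in every alternative fit and without any single library, while the calls of Rpl8, Rpl11, Rpl19, Rpl41, Rplp2, Rps3, Rps4x, Rps27, Rps27l and Rps29 were each lost without at least 1 library, co-treated replicate 4 in every case.

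Sedanolide against control mice, the effect of sedanolide without LPS, gave estimates of the opposite sign with few calls. All 80 members had a log2 change below 0, with a median of -0.30 (0.811-fold), while the median over all genes tested was -0.012. Members past the threshold were 2 of 80, Rpl8 among them, where 2.11% of all genes tested were called lower and 3.2% higher. An unadjusted p below 0.05 was found for 51 of 80 members, beside 4414 of the 17757 genes tested. Both comparisons use the sedanolide libraries, so their opposite signs are not independent of each other.

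Rpl8, which sits beside the peptidyl transferase centre, measured 266, 268, 268, 249.5 and 226 CPM in sedanolide replicates 1 to 5 and 282, 311, 309 and 309.6 CPM in control replicates 1, 2, 4 and 5. Every sedanolide value was below every control value (log2 -0.25, SE 0.070, adjusted p = 0.0464). The lowest log2 changes belonged to members that were not called: Rpl37a at -0.69 (adjusted p = 0.098), Rps27l at -0.60 (adjusted p = 0.0521) and Rps28 at -0.57 (adjusted p = 0.0564). The smallest were those of Rpl4, which lines the peptide tunnel, at -0.026 (adjusted p = 0.863) and Rpsa at -0.044 (adjusted p = 0.792). Genes called in either direction were 5.31% of all genes in this fit. The count of 2 members became 24 with DESeq2 (12.2% of all genes), 26 with the bulb markers as a covariate (7.63%), 22 without co-treated replicate 5 (7.15%) and 15 without sedanolide replicate 2 (5.73%). It was 3 without LPS replicate 2 or sedanolide replicate 1, 1 without LPS replicate 1, 2 without control replicate 4 or sedanolide replicate 3, and 0 without any other single library.

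LPS against control mice showed 1 member called higher, Rplp0, and 0 lower, where 8.47% of all genes tested were called higher and 2.44% lower. At an unadjusted p below 0.05 stood 7 of 80 members, beside 4306 of the 17757 genes tested. DESeq2 called 2 members (10.3% of all genes, in either direction). Log2 changes were above 0 for 51 of 80 members with a median of 0.034 (-0.019 without control replicate 1), beside -0.0034 for all genes tested. Rplp0 encodes the stalk base that, with the Rplp1 and Rplp2 products, recruits the elongation factors. It measured 390.3, 404, 341, 329 and 324 CPM in LPS replicates 1 to 5 and 269.5, 281, 231 and 264 CPM in control replicates 1, 2, 4 and 5. All LPS libraries were above all controls, a change of 1.37-fold (log2 0.45, SE 0.090, adjusted p = 0.00175), and LPS replicates 1 and 2 were the highest. Its call held in every alternative and without any single library. Its 2 partners were not called: Rplp1 had a log2 change of -0.078 (adjusted p = 0.847) and Rplp2 of 0.0011 (adjusted p = 0.997). Next in size were Rps9 at 0.26 (adjusted p = 0.0976), Rpl7a at 0.23 (adjusted p = 0.0607) and Rpl10a at 0.20 (adjusted p = 0.158), and lowest were Rps10 at -0.36 (adjusted p = 0.218), Rpl22l1 at -0.30 (adjusted p = 0.567), Rps27a at -0.27 (adjusted p = 0.689), Rpl21 at -0.20 (adjusted p = 0.499) and Rpl37a at -0.19 (adjusted p = 0.7). When offsets for length and GC content of the transcript were used, 8 members were called higher: Rplp0 at 0.42 (adjusted p = 0.00211), Rps4x, the X-linked S4 gene, at 0.27 (adjusted p = 0.0128), Rpl7a at 0.23 (adjusted p = 0.0174), Rpl5, whose product can bind Mdm2, at 0.24 (adjusted p = 0.0256), Rpl22 at 0.29 (adjusted p = 0.0306), Rpl7 at 0.24 (adjusted p = 0.0427), Rps9 at 0.23 (adjusted p = 0.0432) and Rpl10 at 0.20 (adjusted p = 0.044). In that fit, 7.03% of all genes were called higher and the median of all genes was -0.056.

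Co-treated against LPS mice, the effect of sedanolide in mice that all received LPS, gave 0 called members in edgeR and 0 in DESeq2, where 1.97% of all genes tested were called by edgeR. At an unadjusted p below 0.05 stood 1 member, Rpl24 (log2 -0.63, adjusted p = 0.25), a row with few counts, beside 3508 of the 17757 genes tested. The log2 change was above 0 for 63 of 80 members with a median of 0.086, beside -0.013 over all genes, and that median was -0.031 with the bulb markers as a covariate and -0.00686 in the 12 libraries under 20 CPM of Cdhr1. Highest were Rpl22l1 at 0.31, Rps10 at 0.28, Rpl37a at 0.26, Rpl38 at 0.23 and Rps21 at 0.23, and lowest after Rpl24 were Rplp0 at -0.16, Rpl7 at -0.12, Rpl3 at -0.053 and Rpl13 at -0.048. Rplp0 measured 322, 291, 328, 340.4 and 317 CPM in co-treated libraries, beside the LPS values given above, and the groups overlapped (adjusted p = 0.287).

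The interaction, the change with sedanolide in LPS mice minus that in saline mice, had no called member in edgeR, with 45 of 80 at an unadjusted p below 0.05, and 2 called in DESeq2. Of all genes tested, 0.586% were called by edgeR and 2.83% by DESeq2, and 2821 of 17757 had an unadjusted p below 0.05. The estimate was above 0 for 78 of 80 members with a median of 0.37 (all genes -0.021), and its lowest adjusted p was that of Rpl32 (log2 0.58, SE 0.17, adjusted p = 0.129). Without co-treated replicate 5, 3 members were called (0.921% of all genes).

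Small and large subunit genes had medians of the same sign in each comparison. In co-treated against sedanolide mice the median log2 change was 0.48 for small and 0.39 for large subunit genes, in sedanolide against control mice -0.34 and -0.27, in co-treated against LPS mice 0.089 and 0.083, and in LPS against control mice 0.050 and 0.025. Library medians of the small subunit were -0.075, -0.033, -0.38, -0.52 and -0.58 in sedanolide replicates 1 to 5 and those of the large subunit -0.056, -0.011, -0.31, -0.39 and -0.49. The difference between subunits was not tested.

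Short and long members were set apart next. The 26 members with the shortest coding sequences (up to 132 residues) had a median log2 change of 0.55 in co-treated against sedanolide mice, beside 0.31 for the 26 with the longest (194 residues or more). In sedanolide against control mice these medians were -0.41 and -0.20, and in LPS against control mice -0.026 and 0.092. The spread between libraries followed length too. The SD of log2 CPM over 19 libraries had a median of 0.35 for the shortest and 0.18 for the longest members. Across the 80 members this SD correlated with log2 coding length at Pearson's r = -0.68 and with mean log2 CPM at r = -0.38. Both are descriptions over genes that share the same libraries. Spread was widest for Rps27a (0.59), Rpl37a (0.52), Rpl22l1 (0.50) and Rps21 (0.43), and narrowest for Rpl7l1 (0.059), Rpl4 (0.096) and Rpl3 (0.12).

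**Figure D3:**
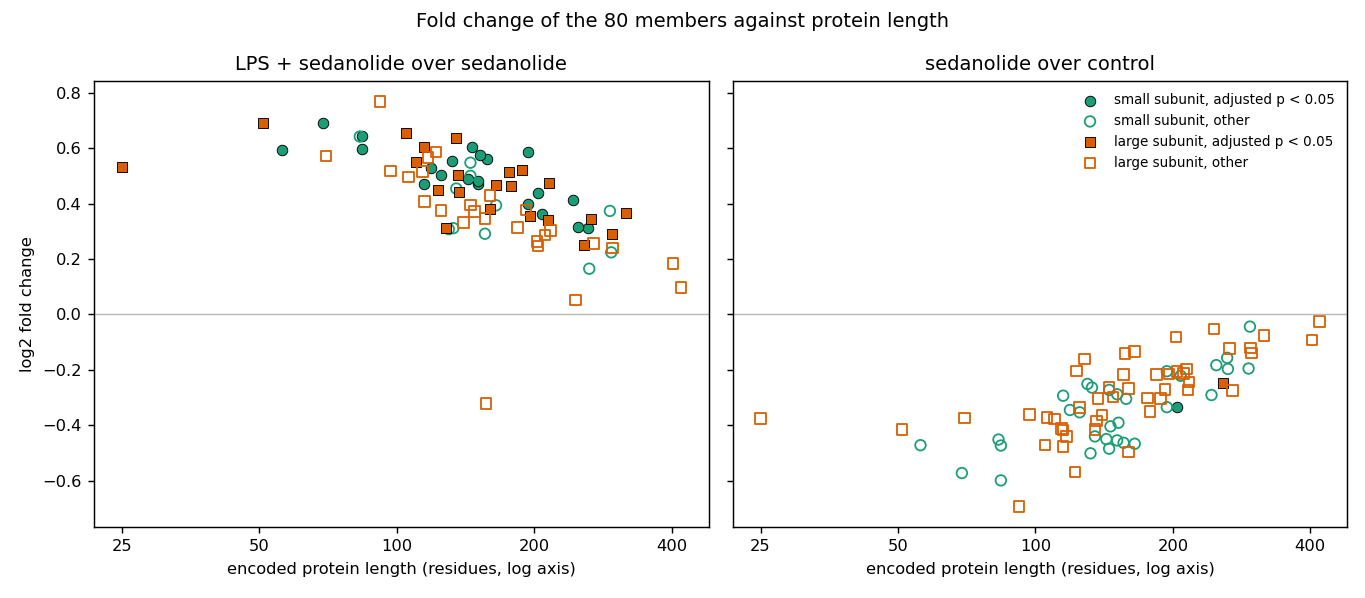
Log2 fold change of the 80 members against the length of the encoded protein in residues (log axis), for co-treated over sedanolide libraries (left) and sedanolide over control libraries (right); circles are small and squares large subunit genes, filled where the adjusted p is below 0.05. Short members tend to lie further from 0 than long ones in both panels, with Rpl24 the 1 member below 0 on the left.

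Rps27a, which is made as a fusion with ubiquitin, measured 155, 216, 163, 165 and 59.2 CPM in co-treated, 177, 186, 130.3, 75.7 and 50.9 CPM in sedanolide and 149, 132, 192 and 211 CPM in control libraries. Values ranged widely within each of these groups, the groups overlapped, and no comparison called it (adjusted p = 0.756 for co-treated against sedanolide mice). Rpl37a had 177, 173, 174, 188 and 91.5 CPM in co-treated, 132, 138, 45.7, 81.9 and 74.1 CPM in sedanolide and 119.9, 168, 156 and 165 CPM in control libraries. The 4 lowest values were those of sedanolide replicates 3 to 5 and co-treated replicate 5, and its change of log2 0.77 in co-treated against sedanolide mice was not called (adjusted p = 0.0708).

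**Figure D4:**
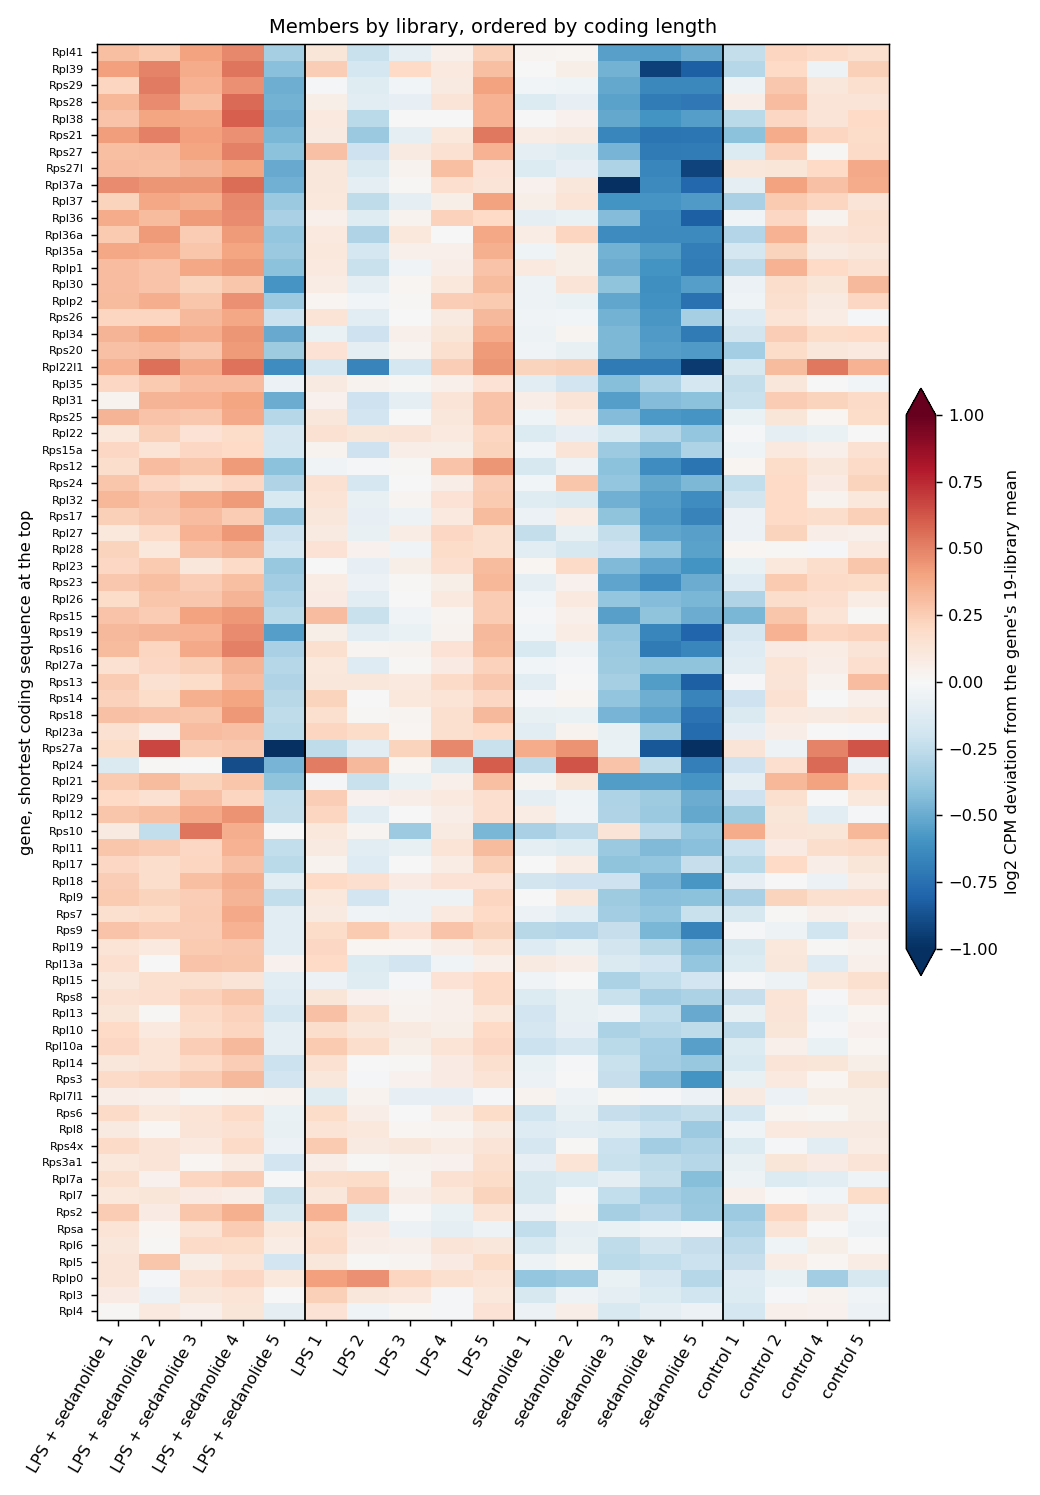
Log2 CPM deviation of 77 of the 80 members (rows, shortest coding sequence at the top) from its mean over 19 libraries, by library (columns, 4 groups split by lines); colours end at -1 and 1. The deepest blue columns are sedanolide replicates 3 to 5 and co-treated replicate 5, deeper at the top than at the bottom. Control replicate 1 and sedanolide replicate 1 are mostly a paler blue, with 72 and 64 of the 80 members at or below their own mean. Rps27a, Rpl24 and Rps10 stand out from their neighbours.

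Other gene sets moved in the same libraries. A set of short transcripts was chosen by annotated length and mean level alone. Non-coding and pseudogene rows, those of the members among them, were not left out of it. The respiratory chain set was chosen by name, with no limit on length. The median deviation of 642 other genes with annotated transcripts under 800 bases was 0.14, 0.16, 0.14, 0.16 and -0.19 in co-treated, -0.077, -0.12, -0.052, 0.047 and 0.10 in LPS, 0.062, 0.058, -0.23, -0.21 and -0.25 in sedanolide and -0.047, 0.11, 0.16 and 0.15 in control libraries. For 76 nuclear genes of the respiratory chain it was 0.17, 0.24, 0.17, 0.18 and -0.26 in co-treated, -0.11, -0.21, -0.13, 0.068 and 0.089 in LPS, 0.14, 0.077, -0.30, -0.37 and -0.46 in sedanolide and 0.12, 0.088, 0.16 and 0.29 in control libraries. Sedanolide replicates 3, 4 and 5 and co-treated replicate 5 were thus the 4 lowest libraries of the study in each of these 3 sets. What part of the members' changes goes with transcript length as such was not tested.

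Offsets for the length and GC content of transcripts were fitted in each library on genes that are not members. With them, 24 of 80 members were called higher in co-treated against sedanolide mice, where 4.9% of all genes were. The median log2 change was then 0.25 beside 0.44 without offsets, and 77 of 80 members remained above 0. Rpl32 at 0.40 (adjusted p = 0.000213), Rps9 at 0.38 (adjusted p = 0.000851), Rpl18 at 0.32 (adjusted p = 0.000976) and Rpl10a at 0.26 (adjusted p = 0.00374) were among the 24, and 12 members named here were called only without the offsets: Rpl7a, Rpl8, Rpl10, Rpl11, Rpl19, Rpl22, Rpl41, Rplp0, Rps4x, Rps6, Rps27l and Rps29. In sedanolide against control mice the median became -0.15, with 69 of 80 below 0 and 1 member called, Rps28 at -0.43 (adjusted p = 0.0318), where 0.833% of all genes were called lower. The library medians of the members after this adjustment were 0.11, 0.10, 0.14, 0.20 and -0.14 in co-treated, 0.17, -0.010, 0.022, 0.011 and 0.14 in LPS, -0.064, -0.0072, -0.17, -0.27 and -0.27 in sedanolide and -0.092, 0.095, 0.017 and -0.0051 in control libraries, so that the order of sedanolide and co-treated replicates was similar on a narrower scale.

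**Figure D5:**
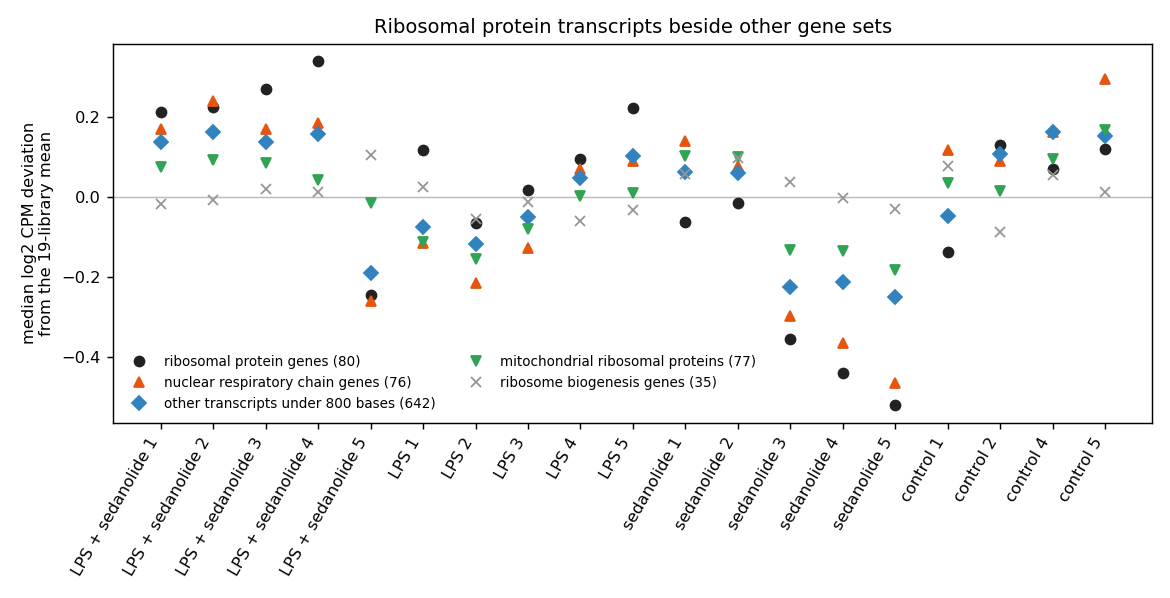
Median log2 CPM deviation from the mean over 19 libraries for the 80 members and 4 other gene sets, by library in 4 groups; each point is the median over the genes of a set. Members, respiratory chain genes and other short transcripts are low in the same 4 libraries, sedanolide replicates 3 to 5 and co-treated replicate 5, while the biogenesis genes stay within -0.088 and 0.10.

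By role in the ribosome, 2 of the 3 stalk members were called in co-treated against sedanolide mice. In that comparison 43 of 80 members and 5.09% of all genes tested were called higher. Rplp0 was higher in co-treated than in sedanolide mice (log2 0.37, SE 0.085, adjusted p = 0.00985), and so was Rplp2 (log2 0.61, SE 0.15, adjusted p = 0.0139), while Rplp1 was not called (log2 0.52, SE 0.18, adjusted p = 0.11). Rplp1 measured 509.5, 501, 535, 553 and 308 CPM in co-treated and 439, 427, 292, 272 and 253 CPM in sedanolide libraries, and co-treated replicate 5 lay among the sedanolide values. In sedanolide against control mice the log2 change of Rplp0 was -0.076, or 0.0019 with length and GC offsets, beside -0.41 for Rplp1 and -0.48 for Rplp2, and none of the 3 was called.

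Around the decoding and catalytic sites, changes in co-treated against sedanolide mice were called for Rps3 of the mRNA entry channel (log2 0.41, adjusted p = 0.0235), Rps18 (0.58, adjusted p = 0.00891), Rps4x (0.31, adjusted p = 0.0164) and Rpl10, a late-joining protein (0.34, adjusted p = 0.0107). They were not called for Rpl3, which shapes the catalytic centre, or Rpl4. Rpl3 measured 549, 498, 560, 569 and 516 CPM in co-treated and 463, 500.1, 485, 472 and 450.3 CPM in sedanolide libraries (log2 0.18, SE 0.066, adjusted p = 0.133). Its lowest co-treated value was just below its highest sedanolide value. Rpl4 measured 532 ± 31.8 CPM in co-treated and 497 ± 28.1 CPM in sedanolide mice (SD, n = 5 each; adjusted p = 0.548).

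Other named members, some with known roles outside translation, were mixed. Rpl11, which with Rpl5 can bind Mdm2, was higher in co-treated than in sedanolide mice (log2 0.47, SE 0.12, adjusted p = 0.0187), and Rpl5 was not called (log2 0.24, SE 0.087, adjusted p = 0.143). Rpsa, also known as the laminin receptor, had 581 ± 33.2 CPM in co-treated and 497 ± 30.6 CPM in sedanolide mice (SD, n = 5 each) and was not called (adjusted p = 0.152). Rps19, mutated in Diamond-Blackfan anaemia, had 184, 185, 187, 204 and 100.3 CPM in co-treated and 144, 155, 112, 93.2 and 84.6 CPM in sedanolide libraries, with overlap (log2 0.55, SE 0.18, adjusted p = 0.0997). Rpl38, needed for translation of Hox messages in mouse embryos, was not called either (log2 0.57, SE 0.18, adjusted p = 0.074). Rpl19 (log2 0.35, SE 0.085, adjusted p = 0.0138) and the short members Rps29 (log2 0.59, SE 0.17, adjusted p = 0.0404) and Rpl41 (log2 0.53, SE 0.15, adjusted p = 0.0485) were called.

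Paralogues were read beside their partners. Rps27l, a p53 target, and Rps27 encode proteins of 84 residues each. Rps27l measured 13.6, 13.5, 13.9, 14.4 and 7.67 CPM in co-treated and 9.93, 10.3, 8.8, 6.92 and 5.71 CPM in sedanolide libraries (log2 0.60, SE 0.17, adjusted p = 0.0399), and Rps27 124, 124, 132, 142 and 75.5 CPM in co-treated and 93.9, 92.2, 72.5, 61.4 and 61.8 CPM in sedanolide libraries (log2 0.64, SE 0.16, adjusted p = 0.0167). Both were higher in co-treated mice, and in both co-treated replicate 5 lay among the sedanolide values. Rpl22 measured 107, 118, 110.2, 113 and 88.7 CPM in co-treated and 90.9, 94.4, 89.6, 82 and 76.4 CPM in sedanolide libraries (log2 0.31, SE 0.074, adjusted p = 0.0129). Its paralogue Rpl22l1, which the Rpl22 protein represses in mouse, had 71.3, 81.9, 73, 81.6 and 36.3 CPM in co-treated and 65.5, 66.2, 34.4, 34.2 and 28.9 CPM in sedanolide libraries and was not called (log2 0.59, SE 0.27, adjusted p = 0.279). Rpl22l1 fell into high and low libraries within both groups, with an SD of log2 CPM over 19 libraries of 0.50, beside 0.18 for Rpl22. Rpl7l1 was the steadiest member, with 43.8 ± 0.639 CPM in co-treated, 41.2 ± 1.82 in LPS, 42.3 ± 1.15 in sedanolide and 43.9 ± 1.9 in control mice (SD, n = 5, 5, 5 and 4), and no comparison called it.

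Calls were also counted by promoter motif. In co-treated against sedanolide mice, 19 of 35 members with a tract in the window and 13 of 25 without were called, and for CCGGAAG 13 of 25 with and 19 of 35 without. Window and start are those of RefSeq, and no test was made of this.

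Related genes of the pathway were followed in the same fit. Ribosome parts outside the naming rule came first: Fau, made as a ubiquitin-like fusion with a small subunit protein, had 223, 208, 223, 234 and 139 CPM in co-treated and 159, 158, 121, 109.8 and 95.5 CPM in sedanolide libraries (log2 0.67, SE 0.15, adjusted p = 0.00582), and Rack1, a signalling scaffold on the small subunit, was higher too (log2 0.34, SE 0.076, adjusted p = 0.00842). Among 4 such genes tested, these 2 were called, where 5.09% of all genes tested were called higher. Of 16 translation factors and other messages with terminal pyrimidine tracts, 4 were higher in co-treated than in sedanolide mice (Pabpc1, Eef1b2, Btf3 and Eif3f), and the list's median was 0.17. Pabpc1, the poly(A)-binding protein, had 273, 244, 253, 281 and 248 CPM in co-treated and 186, 184, 194, 208 and 227 CPM in sedanolide libraries (log2 0.38, SE 0.071, adjusted p = 0.00164). In LPS against control mice 4 of the 16 were higher, Pabpc1 (log2 0.44), Eif3f (0.27), Eef1a1 (0.26) and Eif4b (0.24), and Hnrnpa1 was lower (-0.36). Of all genes tested, 8.47% were called higher and 2.44% lower in that comparison. In sedanolide against control mice, Btf3 (-0.35) and Hnrnpa1 (-0.31) were lower, where 2.11% of all genes tested were.

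Genes that build ribosomes were counted as well. Of 35 biogenesis genes, 1 was called in sedanolide against control mice, Rrp12, which was higher (log2 0.35, adjusted p = 0.0414). Of all genes tested, 3.2% were called higher and 2.11% lower there. An unadjusted p below 0.05 was found for 13 of the 35, beside 4414 of the 17757 genes tested, and DESeq2 called 3 of them. In co-treated against sedanolide mice 0 of the 35 were called by edgeR and 0 by DESeq2, with 4 at an unadjusted p below 0.05. In that comparison edgeR called 5.09% of all genes tested higher and 0.484% lower, and 2877 of 17757 had an unadjusted p below 0.05. None of 77 mitochondrial ribosomal protein genes was called by edgeR in any of the 5 comparisons, with 11 to 30 at an unadjusted p below 0.05 and 0 to 4 called by DESeq2. Of the 17757 genes tested, 2821 to 4414 had an unadjusted p below 0.05 in these comparisons.

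Of 19 genes of mTOR and LARP1 control, Ddit4, a stress-induced mTOR inhibitor, was called in 4 of the 5 comparisons. It measured 53.1, 53.6, 60.1, 65.9 and 47.1 CPM in co-treated, 44.6, 50.4, 43, 44.3 and 42.8 CPM in LPS, 46, 41.3, 47.4, 38.5 and 31.2 CPM in sedanolide and 86.5, 78.2, 73 and 72.8 CPM in control libraries. Every control library was above every other library. It was lower in LPS mice (log2 -0.79, SE 0.11, adjusted p = 4.73e-05) and in sedanolide mice (log2 -0.93, SE 0.11, adjusted p = 0.000586) than in controls, and higher in co-treated than in sedanolide mice (log2 0.45, SE 0.11, adjusted p = 0.0108). Ddit4 was called in the interaction as well (log2 1.24, adjusted p = 0.000492). In LPS against control mice Akt1 was higher (log2 0.31) and Larp4 lower (-0.40). Mtor (log2 -0.23) and Larp1 (-0.081) were not called in co-treated against sedanolide mice.

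Some lists of cell type markers differed between the groups, and others overlapped in all 4. Microglial markers (6 of 6 measured) averaged 6.95 to 7.34 in co-treated and 6.98 to 7.34 in LPS libraries on the log2(CPM + 1) scale. They averaged 6.15 to 6.44 in sedanolide and 5.80 to 6.45 in control libraries. Of the 6, 5 were called higher in co-treated than in sedanolide mice, where 5.09% of all genes tested were. Neutrophil markers (5 of 6 measured) averaged 2.08 to 2.65 in co-treated and 3.35 to 3.46 in LPS libraries. They averaged 0.73 to 1.25 in sedanolide and 0.95 to 1.42 in control libraries. All 5 were called higher in co-treated than in sedanolide mice. Oligodendrocyte markers (6 of 6 measured) ranged between 7.41 and 7.95 in co-treated and between 7.37 and 9.12 in sedanolide libraries, highest in sedanolide replicate 3. Endothelial markers (6 of 6 measured) averaged 5.77 to 6.10 in co-treated, 6.2 to 6.65 in LPS, 5.37 to 5.65 in sedanolide and 5.23 to 5.85 in control libraries, and 2 of them were called higher in co-treated than in sedanolide mice. Lymphocyte markers (4 of 7 measured) averaged 0.55 to 0.83 in co-treated, 0.62 to 0.89 in LPS, 0.16 to 0.34 in sedanolide and 0.33 to 0.48 in control libraries, and 2 were called higher in co-treated than in sedanolide mice. The part of these cell types in the members' differences was not tested. The co-treated libraries were all bulb-poor, and sedanolide replicate 5, the lowest library of the study in the members, had 9.18 CPM of Cdhr1.

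Some rows are uncertain. Rpl24 had a mean of 13.1 counts per library and shares its position with a same-strand transcript, Gm28037. Rps10 had 64.5, overlaps Gm49804 on its strand, and its pseudogene rows together held 1256 counts. Rpl13a, a repressor of inflammatory messages in human myeloid cells, had 459 and overlaps Gm45713 and 4 small nucleolar RNA genes. Pseudogene rows held more than 10% of a member's own mean count for 9 members, Rpl14, Rpl17, Rpl21, Rpl31, Rpl38, Rps7, Rps10, Rps12 and Rps16. For 22 members another gene overlaps on the opposite strand. Syngr1, beside Rpl3, had more counts than Rpl3 itself (13559 and 11534), and Rpl18, Rpl28, Rpl35 and Rps18 have such neighbours too. Whether reads were assigned by strand is not given in the sources used here.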

How the data were processed

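The deposited table holds whole-number counts of reads per gene for 57010 genes in 19 libraries, not normalized. Per the labels' protocols, RNA was extracted with TRIzol, poly(A) RNA was selected and stranded Illumina libraries were made. Per the submitters' processing notes, fastp, HISAT2, StringTie, RSEM and DESeq2 were used upstream, with no versions. The counter's settings, its use of strand and the genome build are not given in the sources used here. Starts in the table differ from those of GRCm38, so its coordinates are not printed. All sample columns matched a sample (0 unmatched).

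The robust quasi-likelihood test of edgeR 4.0.16 (R 4.3.3) was run on the counts in 1 model of all 19 libraries, after TMM scaling and edgeR's own filter on low counts with the groups given. Tests were two-sided, Benjamini-Hochberg adjustment took in the whole set of 17757 genes, and adjusted p below 0.05 was the threshold for a call. The standard error (SE) of a log2 change is its size over the square root of F. Library deviations used log2 CPM with a prior count of 2. Coding and transcript lengths came from GENCODE M21 by gene identifier, with a length for 80 of 80 members and 98.3% of genes tested. Length and GC offsets were splines with 5 degrees of freedom.

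The members, lists, tests and alternatives were chosen with earlier results of these data known. Genes were named where called (up to 12 per comparison by p), as the 5 highest and 5 lowest in LPS against control and co-treated against LPS mice, or in a panel of members with known roles. Rpl4, Rpl39, Rps15, Rps20 and Rps28, the members listed for uncertain counts and the related genes outside the members were named after their values were seen. A few genes enter the counts and medians but are not reported here by name. Alternatives were RLE factors, TMM factors without the members, no filter, a filter of 1 CPM in 4 libraries, DESeq2 1.42.0, a block for the replicate number, a fit of only the compared groups, a covariate from 4 bulb markers, the 12 libraries under 20 CPM of Cdhr1, the offsets, and leaving out each library in turn. No library was found to be deposited in duplicate. With 19.1 to 24.3 M counts per library, the median member had 3643 counts, so the spread between libraries and not counting error sets the precision of nearly all members.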

Additional observations from a re-analysis of the deposited data

Results flagged for a closer look

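Of 120 sets of values (6 summary measures and 24 members in 4 groups), 16 held 1 library far from the others of its group, with a gap to its nearest neighbour that was a large part of the group's range. Chance alone gives about 1 in 20, and the sets share libraries and are not independent. Co-treated replicate 5 accounted for 14 of the 16. Its median deviation over all members was -0.25, where the other 4 co-treated libraries stood between 0.21 and 0.34 (gap over range 0.784). The same ratio was 0.784 for small subunit genes, 0.829 for large subunit genes and 0.848 for the shortest members, for which the medians were -0.41 in this library and 0.31 to 0.43 in the others. Members took 1.35% of its counts and 1.69% to 1.79% of the others' (0.782).

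Single members showed the same library low. Rps27l had 7.67 CPM there and 13.5 to 14.4 CPM in the other co-treated libraries (0.872). Rpl37a had 91.5 CPM there and 173 to 188 CPM in the others (0.849), Rps19 100.3 CPM and 184 to 204 CPM (0.808), and Rplp1 308 CPM and 501 to 553 CPM (0.789). Rpl22l1 had 36.3 CPM there and 71.3 to 81.9 CPM in the others (0.767), Rps9 188 CPM and 241 to 259 CPM (0.745), and Rplp2 85.2 CPM and 133 to 150.0 CPM (0.73). Rps27 had 75.5 CPM there and 124 to 142 CPM in the others (0.726), and Rpl32 133 CPM and 179.7 to 198 CPM (0.717). Co-treated replicate 5 also had the lowest share of mitochondrially encoded counts, 5.5%. What part this has in its low values was not tested.

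Control replicate 1 held the other 2 sets. Rpl8 had 282 CPM there and 309 to 311 CPM in the other controls (0.925), and Rpl41 had 272.5 CPM there and 359 to 374 CPM in the others (0.85). This library had the highest level of Cdhr1 of the study, 445 CPM.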

How the results depend on the processing

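Alternatives were followed for 38 log2 changes of named members. Over all alternatives, 955 of their values kept the direction and the side of the threshold, 138 lost the call with the same direction, 7 gained it and 2 changed sign, both with length and GC offsets: Rplp0 in sedanolide against control mice (0.0019) and Rps27l in LPS against control mice (0.061). Among all 80 members, 11 were above 0 with offsets in sedanolide against control mice, where none was without them. Of the counts of members called under alternatives, 125 were within 1.5 times of those given above and 47 were not. Across the 4 groups the count was 20 with the replicate block and 6 in the 12 libraries under 20 CPM of Cdhr1. For co-treated against sedanolide mice it was 27 with only these groups, 26 with the replicate block, 17 in the 12 libraries and 24 with offsets. LPS against control mice had 2 members with DESeq2, 2 with the bulb covariate and 8 with offsets. Sedanolide against control mice had 5 with RLE factors, 11 with the filter of 1 CPM, 24 with DESeq2, 26 with the bulb covariate, 1 with offsets, and 0 with no expression filter, with only the groups compared, with the replicate block and in the 12 libraries. The interaction had 2 with DESeq2. With offsets the median log2 change was 0.25 in co-treated against sedanolide mice and 0.17 in the interaction. Leaving out each library in turn gave counts of 17 to 60 across the 4 groups, 22 to 68 for co-treated against sedanolide, 1 to 2 for LPS against control, 0 to 22 for sedanolide against control and 0 to 3 for the interaction. The share of all genes tested that was called moved between fits too. With offsets, 0.833% were called lower in sedanolide against control mice, beside 2.11% without. Called higher were 7.03% beside 8.47% in LPS against control and 4.9% beside 5.09% in co-treated against sedanolide mice. A change in the count of members is therefore not by itself a change of the members alone. The cause of these differences was not tested.

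Replicate numbers did not pair the samples: over 27 pairs of libraries with the same number in different groups, the correlation of deviations from the group means was -0.622 to 0.28, with a median of -0.121, and 0 of 19 libraries correlated best with their own number. Depth limits few members, since 4 of 80 had a mean under 500 counts.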
